A study of Homo sapiens with 18 samples.

Results

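CHL1 cells kept on the CDK4/6 inhibitor palbociclib for 6 days were compared directly with CHL1 cells kept on it for 72 hours. The comparison takes the 4 CHL1 libraries labelled with CDK4/6i (2 at each time) out of 18 libraries in the series, of which 8 are from CHL1 and 10 from A375. CHL1 is an established human melanoma cell line with wild-type BRAF, wild-type NRAS and mutant p53. Both compared groups received 1 μM palbociclib in DMSO. The other CHL1 groups were DMSO alone for 72 hours (the control) and the PRMT5 inhibitor GSK3326595 at 500 nM for 72 hours, with 2 libraries each. CHL1 was given no DMSO group at 6 days, so longer time on the drug and longer time in culture cannot be told apart. The labels do not say whether replicates are separate cultures, so p-values measure only the spread between these libraries, which may be technical.

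CDK4 and CDK6 bind D-type cyclins and phosphorylate the retinoblastoma protein RB, which then releases E2F factors to switch on genes for S phase. Palbociclib blocks both kinases and holds cells in G1. Cells held out of the cycle for days are known to grow large, to build up lysosomes, and in some settings to secrete cytokines and matrix proteins, a state called therapy-induced senescence when it is lasting. Those processes, together with stress, pigment and translation genes, made up the 23 gene lists described here.

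The 4 libraries held 20509245 to 28223909 counts over 20705 genes. Levels are given as CPM, each library's counts scaled to a common total with TMM-adjusted library sizes, and differences as log2 fold changes of 6 days over 72 hours with their standard error (SE). The principal components separated the control libraries from the treated ones on the first axis. The second axis set 6-day replicate 2 at 27.5 apart from 6-day replicate 1 at -14.7. The 6-day replicates were further apart than the 72-hour ones. The SD across genes of the difference between the 2 replicates in log2(CPM + 1) was 0.361 at 6 days against 0.213 at 72 hours. The 6-day replicate 1 correlated better with 72-hour replicate 2 (r = 0.991 across genes) than with 6-day replicate 2 (r = 0.985).

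**Figure D1:**
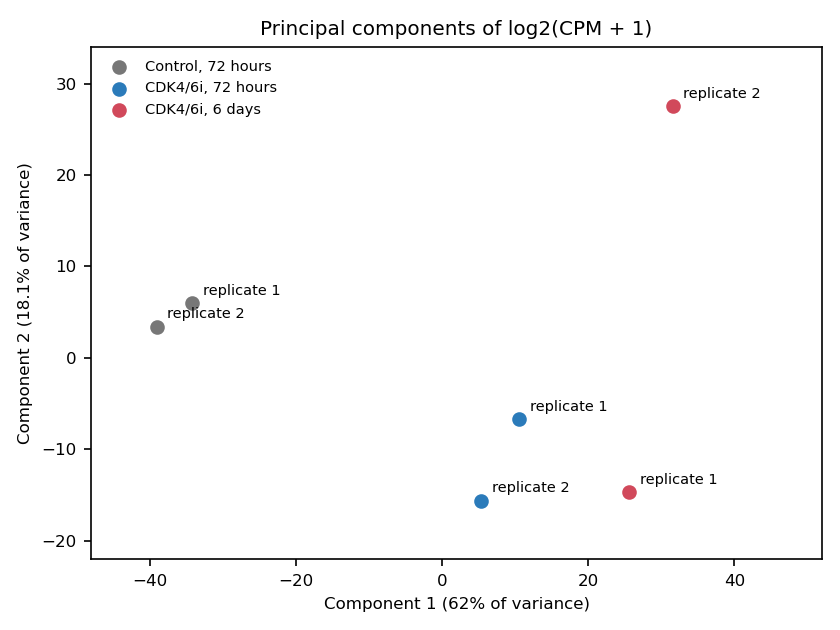
Principal components of log2(CPM + 1) in the 6 control and CDK4/6i libraries of CHL1, 1 point per library, with component 1 (62.0% of the variance) on the x axis and component 2 (18.1%) on the y axis. Both 6-day libraries lie furthest to the right, and component 2 places 6-day replicate 2 at 27.5 and replicate 1 at -14.7.

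Melanocyte markers were read to describe the line, not to test its identity. The marker list also holds SOX10, TYRP1 and MLANA, whose levels are not given here. MITF, the master regulator of the lineage, measured 59.0 and 70.5 CPM at 72 hours and 77.3 and 75.1 CPM at 6 days, and PAX3, which acts upstream of it, measured 82.6 to 97.0 CPM across the 4 libraries. The pigment genes PMEL (0.655 to 1.69 CPM) and TYR (at most 0.0441 CPM) were close to 0. Markers of other cell types were few and low, with 13 of 21 listed genes in the table and summed levels of 45.1 and 42.3 CPM at 72 hours against 65.2 and 61.4 CPM at 6 days. Most of that sum was LUM, a matrix proteoglycan of fibroblasts (19.9 and 20.2 against 33.5 and 33.2 CPM), and PTPRC, the leukocyte phosphatase CD45 (11.4 and 8.60 against 15.7 and 15.6 CPM). The fibroblast marker PDGFRA and the epithelial keratin KRT5 were at 0 in all 4 libraries. The part of other cells in the results was not tested.

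Few single genes passed the test. With edgeR's quasi-likelihood test and Benjamini-Hochberg adjustment, 3 of 20705 genes were up-regulated at 6 days relative to 72 hours (0.0145%) and 0 were down-regulated. These 3 are called differentially expressed genes (DEGs) here. Down-regulated genes numbered 18 with DESeq2 and 0 with limma voom. At an unadjusted p under 0.05, 1115 genes were higher (5.39%) and 519 were lower (2.51%). Both 6-day libraries lay above both 72-hour libraries for 4292 genes (20.7%) and below both for 3917 genes (18.9%). These shares are the background for every list below. Over all genes the median log2 fold change was 0.02, and 10761 genes were above 0. With median-of-ratios scaling in place of TMM, the share of higher genes among those at p under 0.05 went from 68.2% to 58%, and 3712 genes were above without overlap against 4734 below.

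The direction of all 3 DEGs held when each of the 4 libraries was left out, but the call did not. Without 72-hour replicate 1 only AL592188.6 passed (the adjusted p was 0.195 for AKR1B10 and EDIL3), and without 72-hour replicate 2 none did (the adjusted p of all 3 was then 0.375). Without 6-day replicate 1 all 3 passed among 51 DEGs, and without 6-day replicate 2 only AKR1B10 passed (adjusted p = 0.0427 in edgeR, against 0.167 for EDIL3 and 0.207 for AL592188.6).

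The 3 DEGs were AKR1B10, EDIL3 and a clone-named transcript, AL592188.6. AKR1B10 encodes an aldo-keto reductase that reduces retinal and reactive aldehydes, and lies on chromosome 7 (GRCh37, chr7:134212319-134226164, plus strand). It measured 1.69 and 1.64 CPM in the controls, 5.55 and 5.11 CPM at 72 hours, and 24.1 and 17.6 CPM at 6 days. The 3 groups stood apart with no overlap, in ascending order. AKR1B10 rose 3.91-fold from 72 hours to 6 days (log2 fold change 1.97, SE 0.21, adjusted p = 0.00938 in edgeR), on 161 and 154 reads at 72 hours and 671 and 399 reads at 6 days. With PRMT5i it had 50 and 46 reads, close to the 53 and 50 of the controls.

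AKR1B10 has near relatives that could take or lend reads. Its paralog AKR1B1, the aldose reductase of the polyol pathway, was far more abundant and differed in the other direction, at 316 and 297 CPM at 72 hours and 275 and 230 CPM at 6 days (log2 fold change -0.28, SE 0.17, adjusted p = 0.77 in edgeR). AKR1B15, the closest relative, was not analysed here, and reads that fit both genes make the AKR1B10 level less certain. Of the other aldo-keto reductases on the list, AKR1A1 measured 40.8 and 41.1 CPM at 72 hours and 35.7 and 32.3 CPM at 6 days, and AKR1C1, AKR1C2 and AKR1C3 stayed at or below 0.0332 CPM in all 4 libraries.

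EDIL3 encodes a secreted matrix protein with an RGD motif that binds the integrin αvβ3 (GRCh37, chr5:83236373-83680698, minus strand). It measured 14.8 and 12.9 CPM in the controls, 16.3 and 17.6 CPM at 72 hours, and 52.4 and 62.7 CPM at 6 days. The 72-hour libraries lay just above the controls and the 6-day libraries well above both. EDIL3 rose 3.39-fold (log2 fold change 1.76, SE 0.18, adjusted p = 0.00938 in edgeR). Its relative MFGE8, a secreted protein with the same kind of domains, measured 75.0 and 63.9 CPM at 72 hours and 73.2 and 88.9 CPM at 6 days, which overlap.

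The promoter of EDIL3 is shown because it is the only promoter of a DEG in the RefSeq table used (GRCh38.p14). It is given as the 250 bases before the annotated start at chr5:84384881-84385130, minus strand, read 5′ to 3′. Capitals mark its longest run of A and G, which was picked after the sequence was read.
EDIL3: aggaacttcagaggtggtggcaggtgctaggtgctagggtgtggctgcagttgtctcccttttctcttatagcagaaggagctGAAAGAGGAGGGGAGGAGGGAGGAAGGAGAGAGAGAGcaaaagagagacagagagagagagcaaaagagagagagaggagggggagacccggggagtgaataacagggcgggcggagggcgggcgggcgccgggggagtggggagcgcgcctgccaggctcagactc
The run is 37 bases long, and 0.208% of the 35116 promoter windows hold a run at least as long. The window was searched on both strands for the core of the antioxidant response element (TGACNNNGC) and for the AP-1 site (TGANTCA), and held neither, nor did the second EDIL3 window of the table. Of all windows, 10.9% hold the first and 6.57% the second.

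AL592188.6 measured 10.5 and 3.62 CPM at 72 hours and 59.6 and 126 CPM at 6 days, against 5.04 and 9.82 CPM in the controls. The replicates of each group differed from each other by more than those of the other DEGs, yet both 6-day libraries lay far above the rest. It rose with a log2 fold change of 3.71 (SE 0.49, adjusted p = 0.0458 in edgeR). No position for this name was found in the annotation used. It shares a clone name with AL592188.1 to AL592188.5 and AL592188.8. Of these, AL592188.1 measured 258 and 210.4 CPM at 72 hours and 522 and 460.1 CPM at 6 days (log2 fold change 1.07, SE 0.35, adjusted p = 0.445 in edgeR). AL592188.2 (log2 fold change 0.71) and AL592188.8 (0.87) were also higher without overlap and missed the threshold, and AL592188.3, AL592188.4 and AL592188.5 overlapped.

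Ribosomal RNA moved with these libraries and was set beside the result. RNA28S5, the 28S rRNA, measured 8083 and 5590 CPM at 72 hours and 1224 and 481 CPM at 6 days (log2 fold change -3.00, SE 0.61, adjusted p = 0.185 in edgeR). RNA18S5, the 18S rRNA, measured 6891 and 4571 CPM at 72 hours and 813 and 149 CPM at 6 days. The controls, at 799 and 3359 CPM for RNA28S5, overlapped the 6-day libraries and lay below both 72-hour ones. Together RNA28S5 and RNA18S5 took 1.57% and 1.08% of counts at 72 hours and 0.209% and 0.0696% at 6 days. In the other direction, RNA5-8S5 measured 502 and 393 CPM at 72 hours and 677 and 615 CPM at 6 days, and MIR3687, a microRNA gene of the rDNA spacer, 298 and 166 against 414 and 551 CPM. MIR3648, of the same spacer, measured 187 and 126 against 369 and 326 CPM (log2 fold change 1.15, SE 0.24, adjusted p = 0.209 in edgeR). The kit selected poly-A RNA, which rRNA lacks, and the part of these reads in the AL592188.6 result was not tested.

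**Figure D2:**
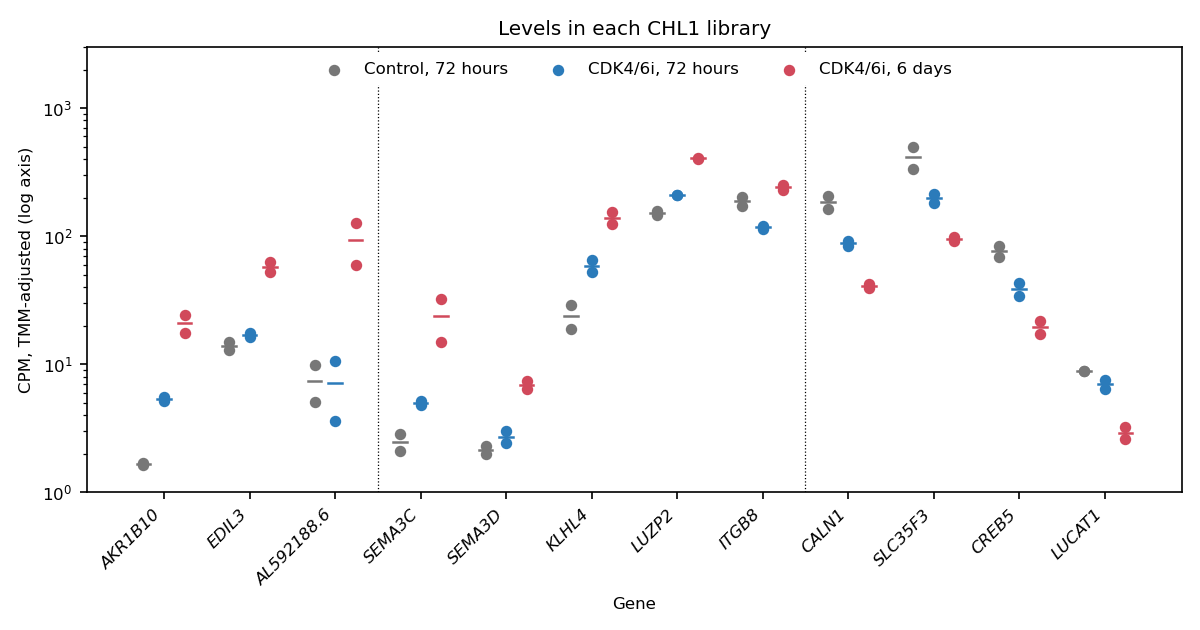
CPM on a log axis in each CHL1 library for 12 genes, with control (grey), CDK4/6i at 72 hours (blue) and CDK4/6i at 6 days (red); points are libraries and bars are means. The 3 DEGs stand left of the first dotted line. Genes higher at 6 days that missed the threshold are in the middle, and lower ones on the right. The 6-day points lie beyond both 72-hour points for all 12, which was a condition for choosing those that are not DEGs.

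At an adjusted p under 0.1 there were 8 genes, the 3 DEGs included, of which 7 were higher and 1 was lower. SEMA3C, a secreted semaphorin that guides axons and vessels, measured 5.17 and 4.78 CPM at 72 hours and 14.9 and 32.4 CPM at 6 days (log2 fold change 2.24, SE 0.32, adjusted p = 0.0574 in edgeR). Its 6-day replicates differed from each other by more than 2-fold but both exceeded every earlier library. SEMA3D, of the same family, was also higher, at 3.00 and 2.42 CPM against 7.33 and 6.44 CPM (adjusted p = 0.131 in edgeR). ITGB8, the integrin subunit that activates latent TGF-β, measured 114 and 120 CPM at 72 hours and 228 and 252 CPM at 6 days (log2 fold change 1.03, SE 0.16, adjusted p = 0.0749 in edgeR). The controls lay between, at 202 and 171 CPM, so the 6-day level exceeded a 72-hour level that was itself below the control. LUZP2, a leucine zipper protein, measured 210 and 208 CPM at 72 hours and 399 and 410 CPM at 6 days (adjusted p = 0.0749 in edgeR), with controls of 157 and 146 CPM. RP11-1220K2.2, a clone-named transcript, was at 25.8 and 20.2 CPM against 50.1 and 62.9 CPM.

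The remaining genes of smallest p among those higher at 6 days had adjusted p-values of 0.119 to 0.136. KLHL4, a kelch-repeat protein, measured 28.8 and 18.9 CPM in the controls, 65.0 and 52.7 CPM at 72 hours and 125 and 153 CPM at 6 days. CSMD3, a large transmembrane protein, measured 7.00 and 7.21 CPM at 72 hours and 14.3 and 16.2 CPM at 6 days. UBL3, a ubiquitin-like protein that sorts cargo to small vesicles, measured 109 and 124 against 225 and 208 CPM. LRCH2, a leucine-rich repeat protein, measured 30.5 and 31.7 against 60.4 and 53.7 CPM. No overlap between the times was a condition for naming these 4 genes. In each of them both 6-day libraries also exceeded both controls.

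On the lower side CALN1, a calmodulin-like calcium-binding protein, came closest to the threshold. It measured 162 and 204 CPM in the controls, 84.3 and 90.8 CPM at 72 hours, and 42.5 and 39.6 CPM at 6 days (log2 fold change -1.09, SE 0.16, adjusted p = 0.0749 in edgeR). SLC35F3, a putative thiamine transporter, followed the same order with 333 and 495, then 182 and 214, then 98.8 and 91.9 CPM. CREB5, a leucine zipper transcription factor, did so too with 68.3 and 83.7, then 34 and 43.3, then 21.7 and 17.2 CPM, and GPC6, a glypican, with 110 and 161, then 35.3 and 49.1, then 24.5 and 16.2 CPM. Separation of 6 days from 72 hours was a condition for naming these 4 genes. Their 72-hour libraries also lay below both controls. LUCAT1, a long non-coding RNA of the stress response, measured 7.52 and 6.38 CPM at 72 hours and 3.20 and 2.60 CPM at 6 days. ATP6V0A4, a proton pump subunit, measured 109 and 89.9 against 65.0 and 42.9 CPM, and FAM189A1 525 and 587 against 306 and 338 CPM. The pseudogene OR4F13P, at 1.52 and 2.59 against 0.719 and 0.309 CPM, belongs to a family of near-identical copies and is uncertain.

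Genes at p under 0.05 differed in base composition and length. Among genes averaging 1 CPM or more, the 860 higher ones had a median GC content of 42.2%, the 415 lower ones 47.0%, and all genes 47.4%. Their median genomic spans were 56.1, 89.3 and 38.3 kb. The libraries differed in the same property, since the gap in level between GC-rich and GC-poor genes was 0.46 and 0.15 (log2) at 72 hours and 0.01 and 0.42 at 6 days. What these differences contributed was not tested gene by gene, and fits with a GC correction are among the alternatives.

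No gene list held more than 1 DEG, and a list is described by how many members lay beyond the 72-hour libraries and by its median, beside the same for all genes. The members of a list are not independent of each other, and a difference between lists was not tested.

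**Figure D3:**
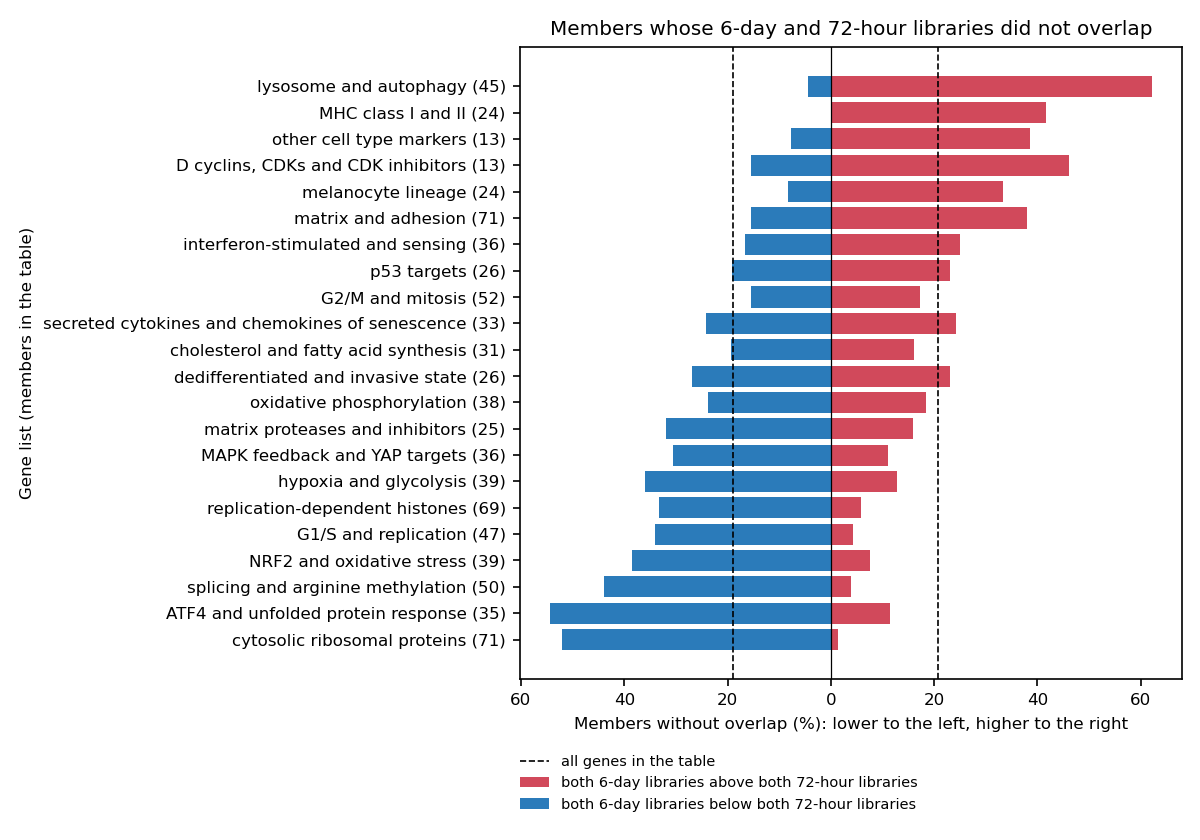
For 22 gene lists, the percentage of members in the table whose 6-day libraries both lay above (red, right) or both below (blue, left) both 72-hour libraries, with the number of members in parentheses. Dashed lines mark all genes, at 20.7% higher and 18.9% lower. Lysosome and autophagy genes reach 62.2% higher at the top, and ribosomal proteins 52.1% lower at the bottom.

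Counted over all members in the table, lysosomal genes were the list with the highest share above the 72-hour libraries. Of 45 members, 28 lay above both without overlap (62.2%, against 20.7% of all genes) and 2 lay below (4.44%), with a median log2 fold change of 0.19. The log2 fold change was positive for 42 members, and for all 25 proteins of the lysosomal lumen, which are the enzymes that digest cargo and their helper proteins NPC2 and PSAP. Among members averaging 1 CPM or more, 27 of 43 lysosomal genes were above (62.8%), and 10 of 15 genes of the MHC list (66.7%). None passed the test across all genes, and 6 were higher at p under 0.05 (13.3%). Summed levels were 4839 and 4553 CPM in the controls, 7190.1 and 7066 CPM at 72 hours, and 8014 and 8179 CPM at 6 days. The sums thus stood in 3 separate steps, with the last step 1.14-fold above 72 hours.

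In the lumen, NPC2, which binds cholesterol in the lysosome, measured 29.3 and 25.0 CPM at 72 hours and 36.6 and 46.5 CPM at 6 days (log2 fold change 0.61, SE 0.18, adjusted p = 0.397 in edgeR). CTSF, a cysteine cathepsin, measured 38.0 and 40.4 against 59.5 and 57.1 CPM. The abundant acid ceramidase ASAH1 measured 1806 and 1910.2 CPM at 72 hours and 2151 and 1969.6 CPM at 6 days, and the saposin precursor PSAP 1025 and 1004 against 1126 and 1162 CPM. Among membrane proteins, LAMP2, a main protein of the lysosomal membrane, measured 562 and 559 against 724 and 736 CPM, and ATP6V1A, the catalytic subunit of the proton pump, 111 and 106 against 137 and 151 CPM. Each of these genes had its 6-day libraries above both 72-hour ones and its 72-hour libraries above both controls. ATP6V0A4, the proton pump subunit described above, is not on this list and lay the other way. MITF, TFEB and TFE3, related factors that drive lysosomal genes, were also above without overlap, with TFEB at 14.6 and 14.7 against 16 and 20.4 CPM. SQSTM1, the autophagy receptor p62, lay below, at 185 and 183 against 173 and 181 CPM.

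Genes of antigen presentation by MHC class I lay in the same direction. Of 12 members, 8 were above without overlap (66.7%) and 0 below, with a median log2 fold change of 0.26. At p under 0.05, 1 was higher (8.33%, against 5.39% of all genes) and 0 lower. HLA-B measured 11.9 and 9.33 CPM in the controls, 21.1 and 18 CPM at 72 hours and 25.0 and 37.3 CPM at 6 days (log2 fold change 0.67, SE 0.22, adjusted p = 0.454 in edgeR). HLA-C measured 95.5 and 86.5 against 110.0 and 125 CPM, HLA-E 60.2 and 58.4 against 69.6 and 80.7 CPM, and B2M, the common light chain, 210 and 202 against 253 and 244 CPM. The immunoproteasome genes PSMB8, PSMB9 and PSMB10 overlapped between the times. HLA genes share sequence, and how the counting split reads between them makes single levels uncertain. Class II genes had summed levels of only 9.06 to 11.1 CPM in the 4 libraries.

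Interferon-stimulated genes as a whole stayed near the background, with 9 of 36 above without overlap (25%) and 6 below (16.7%). The guanylate-binding proteins, which attack vacuoles of intracellular pathogens, were among the genes above. GBP2 measured 5.34 and 4.35 CPM at 72 hours and 9.71 and 12.9 CPM at 6 days (log2 fold change 1.22, SE 0.22, adjusted p = 0.136 in edgeR), and GBP1 4.00 and 3.95 against 8.30 and 6.75 CPM. RSAD2, an antiviral enzyme, measured 5.62 and 4.65 against 7.26 and 7.41 CPM. MX2, another antiviral protein, lay the other way at 16.1 and 14.1 against 12.0 and 9.74 CPM.

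Matrix and adhesion genes had 27 of 71 members above without overlap (38%) and 11 below (15.5%), with a median log2 fold change of 0.17. The median was 0.06 from 6-day replicate 1 alone and 0.25 from replicate 2 alone, and with median-of-ratios scaling 32.4% were above and 21.1% below. Among members averaging 1 CPM or more, 17 of 54 were above (31.5%) and 11 below (20.4%), with a median of 0.10. All genes at that level had 20.5% above and 21.8% below. This list holds the DEG EDIL3, and 12 members were higher at p under 0.05 (16.9%, against 5.39% of all genes) and 2 lower. The collagens had a median of 0.35 over 24 genes, but of 0.10 over the 18 with a mean of at least 1 CPM, so the larger value rests on genes of very low level. COL15A1 measured 44.2 and 37.1 against 51.4 and 74.5 CPM, whereas the basement membrane collagens COL4A1 (444 and 479 against 400.2 and 283 CPM) and COL4A2 (439.5 and 440.0 against 373 and 316 CPM) lay lower. Fibronectin, FN1, measured 19.6 and 19.8 against 23.5 and 45 CPM, and LUM, described above, had a log2 fold change of 0.74. SPARC, a collagen-binding glycoprotein, lay lower at 327 and 242 against 178 and 207 CPM. Beside ITGB8, the integrins ITGA1, ITGA2 and ITGA3 were higher at p under 0.05, ITGA3 at 4.96 and 5.51 against 9.02 and 8.16 CPM.

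Secreted cytokines and chemokines stayed near the background. Of 33 members in the table, 8 lay above without overlap (24.2%) and 8 below (24.2%), with a median of -0.06. IL6 measured 32.3 and 23.7 CPM at 72 hours and 20.6 and 18.7 CPM at 6 days, which overlapped the controls at 20.3 and 14.6 CPM. IGFBP4, a binding protein of insulin-like growth factors, was higher at 19.7 and 18.1 against 26.0 and 34.3 CPM. Matrix proteases and their inhibitors had 4 of 25 above (16%) and 8 below (32%), but 16 had a positive log2 fold change, and with the GC correction 9 were above and 9 below. PLAT, tissue plasminogen activator, measured 250 and 204 CPM at 72 hours and 329 and 614 CPM at 6 days (log2 fold change 1.06, SE 0.26, adjusted p = 0.341 in edgeR), while PLAUR, the urokinase receptor, measured 17 and 24 against 11.9 and 2.56 CPM. Both of these genes had 6-day replicates far apart.

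Melanocyte lineage genes had 8 of 24 members above without overlap (33.3%) and 2 below, with a median of 0.29. From 6-day replicate 1 alone the median was 0.11, with 41.7% of members above where 37.4% of all genes were, and from replicate 2 alone it was 0.32. Among members averaging 1 CPM or more the median was 0.21. At that level 4 of 5 regulators were above, but only 2 of 13 pigment and marker genes (15.4%, against 20.5% of all such genes), with 2 below. DCT, an enzyme of melanin synthesis, measured 88.8 and 65.2 CPM in the controls, 33.7 and 33.5 CPM at 72 hours and 86.5 and 58.4 CPM at 6 days (log2 fold change 1.11, SE 0.21, adjusted p = 0.16 in edgeR). The 6-day libraries overlapped the controls, and the 72-hour ones lay below both. TFAP2A, a regulator of the lineage, measured 84.5 and 71.1 against 104 and 99.7 CPM. S100B, a calcium-binding melanoma marker, was high in 1 late library only, at 51.3 and 33.7 against 50.9 and 118 CPM. CSPG4, a melanoma surface proteoglycan, lay lower at 58.0 and 53.6 against 38.0 and 32.7 CPM. Of 26 genes of the dedifferentiated state, 6 lay above (23.1%, against 20.7% of all genes) and 7 below (26.9%, against 18.9%), near the background. CD44, a hyaluronan receptor, was among those above at 41.8 and 37.1 against 53.8 and 68.2 CPM, and ROR2, a receptor for Wnt ligands, among those below at 5.03 and 9.26 against 4.42 and 0.705 CPM.

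**Figure D4:**
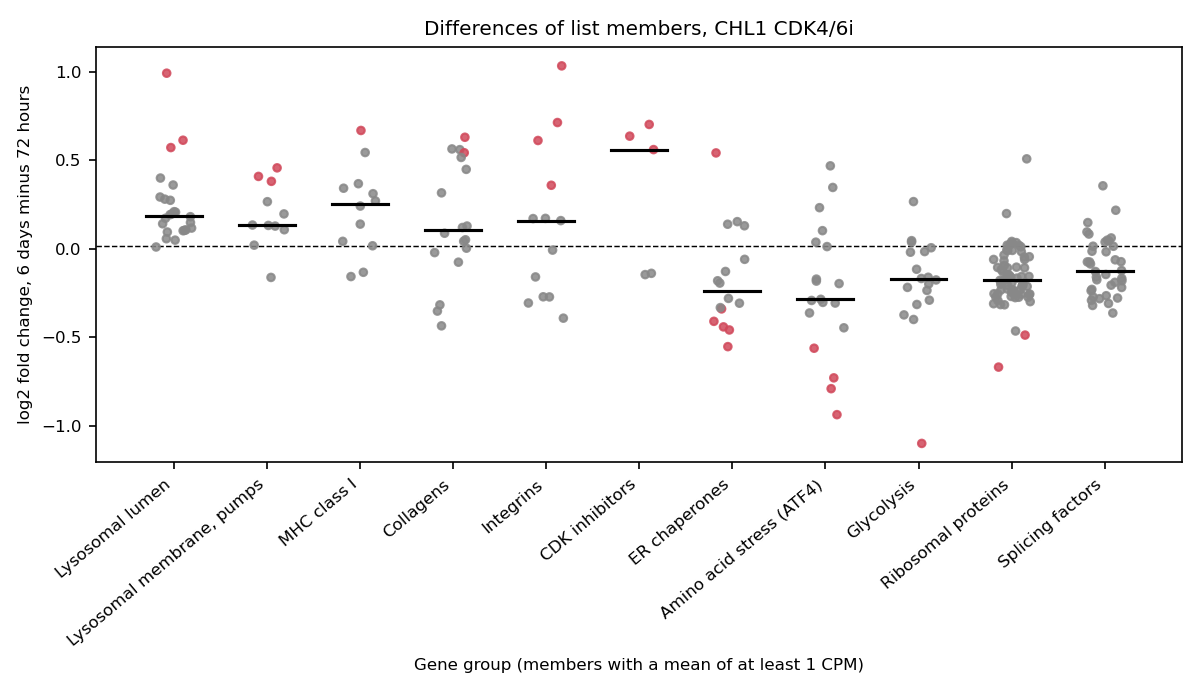
Log2 fold change (6 days minus 72 hours) of each member with a mean of at least 1 CPM in 11 groups of genes, with members at p under 0.05 in red, the group's median as a bar and the median of all 20705 genes as a dashed line. All proteins of the lysosomal lumen shown lie above 0, and most ER chaperones and ribosomal proteins lie below it.

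The drug's targets and their inhibitors were next. CDK6 measured 9.07 and 9.13 CPM at 72 hours and 14.5 and 15.6 CPM at 6 days (log2 fold change 0.73, SE 0.19, adjusted p = 0.352 in edgeR), with no overlap. CDK4 measured 70.6 and 59.7 against 65.9 and 59.6 CPM. CCND1, cyclin D1, stood at 287 and 304 CPM in the controls, 754 and 738 CPM at 72 hours and 751 and 713 CPM at 6 days, so its high level at 72 hours was still present at 6 days. CCND3 measured 52.4 and 52.7 against 56.8 and 53.3 CPM, and CCND2 stayed at or below 0.0690 CPM. RB1 measured 109 and 118 against 173 and 122 CPM. Of 5 CDK inhibitors in the table, 3 were higher without overlap (60%, against 20.7% of all genes). These were CDKN1B, which encodes p27 (87.6 and 85.6 against 147 and 109 CPM), CDKN2C, which encodes p18 (15.8 and 13.6 against 24 and 21.8 CPM), and CDKN2D, which encodes p19 (5.00 and 4.85 against 8.05 and 7.98 CPM). The CDKN2C controls, at 27.2 and 21.9 CPM, lay above both 72-hour libraries and overlapped the 6-day ones. For CDKN1B and CDKN2D both 6-day libraries also exceeded both controls. CDKN1A, which encodes p21, overlapped between the times at 23.3 and 21.0 against 23.9 and 16.4 CPM. Among p53 targets, in a line with mutant p53, 6 of 26 were above (23.1%) and 5 below (19.2%), and ZMAT3 measured 69.8 and 75.6 against 98.7 and 94.5 CPM.

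For cell-cycle lists the late replicates differed. G1/S and replication genes summed to 4695 and 4182 CPM in the controls, 2942 and 2865 CPM at 72 hours and 2916 and 2515 CPM at 6 days, which overlap. Of 47 members, 2 were above (4.26%) and 16 below (34%), but the median was -0.004 from 6-day replicate 1 alone and -0.26 from replicate 2 alone. G2/M genes summed to 3903 and 4016 against 4472 and 3633 CPM. Of 52 members, 9 were above (17.3%, against 20.7% of all genes) and 8 below (15.4%, against 18.9%). Replicate 1 alone gave a median of 0.10 where replicate 2 gave -0.09. Replication-dependent histones, whose mRNAs lack a poly-A tail and are poorly captured by this kit, summed to 1581 and 1519 against 1561 and 1271 CPM. Of their 69 members, 4 were above (5.8%) and 23 below (33.3%), with a median of -0.04 from replicate 1 and -0.31 from replicate 2. The lower medians of these lists thus came mainly from replicate 2.

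Genes of the unfolded protein response and of ATF4, the factor that answers amino acid shortage, lay lower in both late libraries. Of 35 members, 19 were below without overlap (54.3%, against 18.9% of all genes) and 4 above (11.4%), with a median of -0.28, and 9 were lower at p under 0.05 (25.7%, against 2.51%). The median was -0.13 from 6-day replicate 1 alone and -0.36 from replicate 2 alone. The ER chaperones, which fold secreted proteins, had 10 of 16 below (62.5%). Their summed level was 4264 and 4355 CPM in the controls, 4218 and 4307 CPM at 72 hours and 3663 and 3294 CPM at 6 days, where control and 72-hour libraries overlapped and both 6-day ones lay below. PDIA6, a disulfide isomerase, measured 282 and 289 CPM at 72 hours and 222 and 194 CPM at 6 days (log2 fold change -0.46, SE 0.16, adjusted p = 0.472 in edgeR). XBP1, a transcription factor of the response, measured 88.6 and 100.0 against 77.0 and 51.6 CPM, and HSPA5, the chaperone BiP, 645 and 656 against 552 and 481 CPM. DNAJB9, a co-chaperone of BiP, lay the other way at 23.1 and 31.9 against 46.3 and 33.8 CPM. Among genes of amino acid supply, ASNS, asparagine synthetase, measured 81.2 and 98.6 against 68.0 and 35.9 CPM, and MTHFD2, a mitochondrial folate enzyme, 56.2 and 62.4 against 49.97 and 30.3 CPM.

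Ribosomal protein genes also lay lower. Of 71 members, 37 were below without overlap (52.1%) and 1 above (1.41%), with a median of -0.17, and 10 had a positive log2 fold change. At p under 0.05, 2 were lower (2.82%, against 2.51% of all genes) and 0 higher. The median was -0.07 without 72-hour replicate 1 and -0.28 without 72-hour replicate 2. Summed levels were 18513 and 15554 CPM in the controls, 19243 and 16711 CPM at 72 hours and 16205 and 15388 CPM at 6 days, so the late libraries lay below the 72-hour ones by less than the controls differed from each other. RPSA measured 452 and 430.3 against 367 and 263 CPM, and RPL4 567 and 521 against 463 and 411 CPM. Many pseudogenes copy these genes, so single levels are uncertain. Splicing and arginine methylation genes, the processes the study follows, had 2 of 50 above (4%) and 22 below (44%), with a median of -0.09. At p under 0.05, 0 of them were higher and 0 lower. The median was -0.06 from 6-day replicate 1 alone (17 above and 23 below) and -0.21 from replicate 2 alone (4 above and 38 below). PRMT5 measured 7.21 and 6.91 against 6.72 and 6.57 CPM, its partner WDR77 35.6 and 31.9 against 32.3 and 30.8 CPM, and MDM4, whose splicing PRMT5 controls, 76.8 and 78.4 against 71.5 and 73.7 CPM. Their log2 fold changes were -0.09, -0.10 and -0.10, each smaller than its SE.

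Oxidative stress genes under NRF2, a list that holds AKR1B10, were divided. Of 39 members, 3 were above (7.69%) and 15 below (38.5%), and 12 had a positive log2 fold change. The glutathione and thioredoxin genes were positive in 7 of 11, and those of detoxification and NADPH supply in 1 of 16. NQO1, a quinone reductase and a standard NRF2 target, measured 118 and 131 CPM at 72 hours and 96.8 and 67.7 CPM at 6 days (log2 fold change -0.60, SE 0.19, adjusted p = 0.429 in edgeR), and PRDX1, a peroxidase, 206 and 210 against 165 and 130.3 CPM. Glycolysis genes had 1 of 19 above (5.26%, against 20.7% of all genes) and 10 below (52.6%, against 18.9%). LDHA, lactate dehydrogenase A, was at 366 and 352 against 293 and 251 CPM. Within the same list EPAS1, the hypoxia factor HIF-2α, lay higher at 5.34 and 5.31 against 8.09 and 9.30 CPM. Cholesterol and fatty acid synthesis had 5 of 31 above (16.1%, against 20.7% of all genes) and 6 below (19.4%, against 18.9%). Oxidative phosphorylation had 7 of 38 above (18.4%) and 9 below (23.7%). Feedback genes of MAPK with targets of YAP had 4 of 36 above (11.1%) and 11 below (30.6%). In the last of these, SPRED2, an inhibitor of RAS signalling, measured 92.2 and 95.4 against 71.7 and 62.7 CPM.

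The lists were then read from each late library alone, since the 2 differed. Proteins of the lysosomal lumen had 18 of 25 members above both 72-hour libraries in replicate 1 and 21 of 25 in replicate 2, where 37.4% and 38.6% of all genes were above. MHC class I had 10 of 12 and 9 of 12. ER chaperones had 12 of 16 and 11 of 16 below, where 31.9% and 36.8% of all genes were below, and ribosomal proteins 43 of 71 and 42 of 71. The medians of lysosomal, MHC class I, ATF4 and ribosomal protein lists kept their sign in both, while those of G2/M, p53 and interferon lists, among others, had opposite signs.

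**Figure D5:**
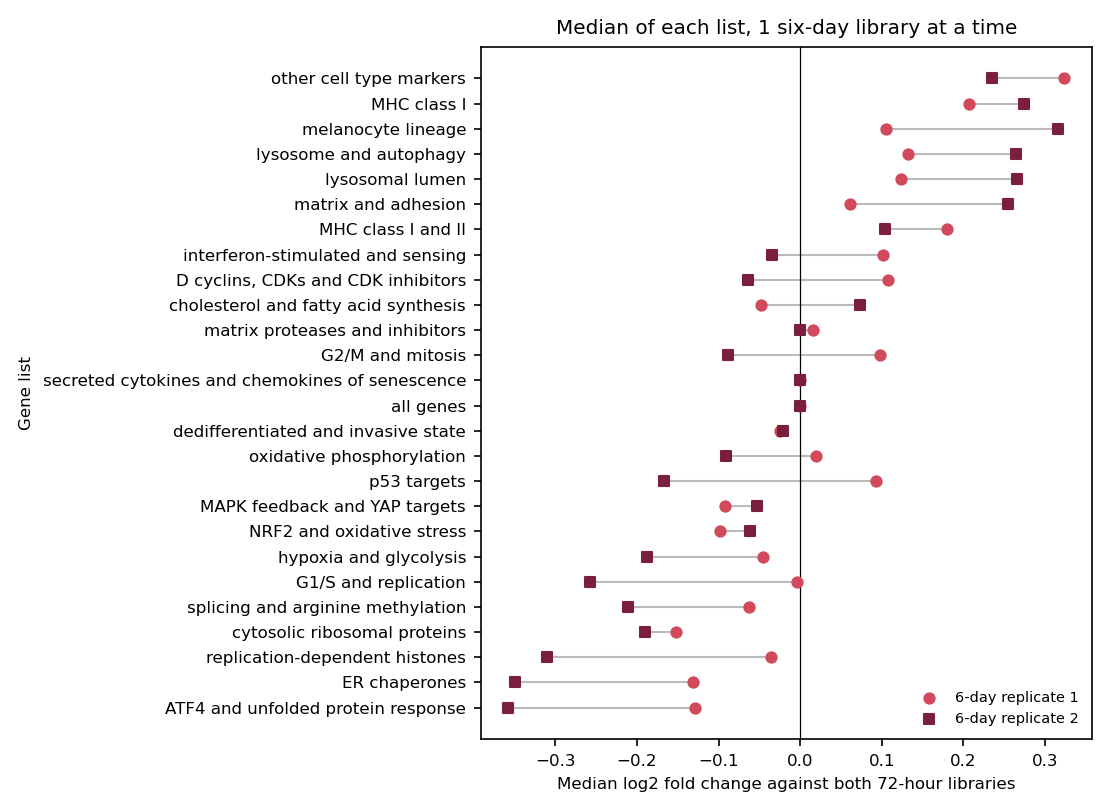
Median log2 fold change of each gene list against both 72-hour libraries, computed with only 6-day replicate 1 (circles) or only replicate 2 (squares). Proteins of the lysosomal lumen lie above 0 and ER chaperones below 0 with either library, whereas histones and G1/S genes lie near 0 with replicate 1.

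The DEGs were set beside A375, the second melanoma line, which had its own control at each time. There AKR1B10 measured 4.29 and 4.64 CPM with CDK4/6i at 72 hours and 0.548 and 0.391 CPM at 6 days, and its 6-day controls were at 0.0929 and 0.672 CPM. In A375 the 6-day libraries thus read lower than the 72-hour ones with and without the drug. The change in AKR1B10 after subtraction of the control was -0.90 (log2, SE 0.74, adjusted p = 0.505 in edgeR). EDIL3 in A375 measured 4.78 and 4.11 CPM with CDK4/6i at 72 hours and 5.56 and 4.02 CPM at 6 days, which overlap. Its A375 controls were at 8.24 and 6.65 CPM at 72 hours and 50.1 and 14.7 CPM at 6 days. For EDIL3 the change after subtraction of the control was thus -2.01 in A375 (SE 0.57, adjusted p = 0.0925 in edgeR), with the higher late level in the controls. No CHL1 value can be corrected in that way. AL592188.6 in A375 measured 83.9 and 771 CPM with CDK4/6i at 72 hours and 0 in both libraries at 6 days. Its A375 controls were at 5.88 and 665 CPM at 72 hours and 2.63 and 3.33 CPM at 6 days. The 72-hour replicates of this locus were thus far apart with and without the drug.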

How the data were processed

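Poly-A RNA was sequenced in paired ends of 150 bases on a NextSeq500. The authors aligned reads to GRCh37 with Hisat 2.0.4, ran HTSeq with its defaults to obtain gene counts, used edgeR to drop genes of low expression, and deposited whole-number counts for 20705 genes. All values were whole and library totals differed, so they were taken as raw counts although the table's name points to normalised values. The strandedness is not given in the sources used here, so overlapping and antisense genes cannot be told apart.

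All 8 CHL1 libraries were fitted as 4 groups in R 4.3.3 with edgeR 4.0.16 (TMM, quasi-likelihood test, prior count of 0.125 for fold changes), so that the PRMT5i and control libraries also inform the spread. The contrast was 6 days minus 72 hours, with Benjamini-Hochberg adjustment over 20705 genes and a threshold of 0.05. The scripts were tested on simulated data. Alternatives used DESeq2 1.42.0, limma 3.58.1 (voom) and others given at the end of the text. GC content came from GENCODE 44 lifted to GRCh37, and 16223 genes matched (78.4%), against 88.4% of genes averaging 1 CPM or more. The 2 libraries of each time differed by more than sampling noise and were counted as 2.

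The genes named were those with an adjusted p under 0.05, the 10 of smallest p in each direction with a gene symbol, a mean of 1 CPM or more and no overlap, up to 4 per list of smallest p, the drug targets with partners, and paralogs of DEGs. Other list members and loci named (rRNA genes beyond that rule, MIR3687, MIR3648, the AL592188 transcripts and RP11-1220K2.2 among them) were chosen after their values were seen. The comparison, its lists and this rule were chosen with earlier results of these data known.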

Additional observations from a re-analysis of the deposited data

Results flagged for a closer look

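The 6-day against 72-hour difference under CDK4/6i was also computed in A375. The difference between the lines was tested in a fit of all 18 libraries with edgeR's quasi-likelihood test, adjusted over all genes. The result is given for the 23 genes that were DEGs, nearest to the threshold or their paralogs, and passed for 11 of them. All but the paralogs were picked by their CHL1 difference, which is part of what was tested. A difference between lines was thus favoured in advance for them. The share of all genes that passed was not counted, so the 11 cannot be called particular to these genes. AKR1B10 was higher at 6 days in CHL1 and lower in A375, a difference between lines of 5.20 (log2, SE 0.52, adjusted p = 3.62e-06 in edgeR). AL592188.6 (adjusted p = 0.000238 in edgeR) had 1527 and 14805 reads in the A375 CDK4/6i libraries at 72 hours and 0 in both at 6 days, so its fitted difference is no bound. SEMA3D (1.92e-06) and KLHL4 (0.000217) were likewise higher at 6 days in CHL1 and lower in A375. SEMA3C (0.0138) was higher at 6 days in both lines and more so in CHL1, and LRCH2 (0.0399) in both and more so in A375. LUCAT1 (0.00121), OR4F13P (6.51e-05), ATP6V0A4 (0.0119), FAM189A1 (0.00911) and GPC6 (6.85e-05) had a lower fold change in CHL1 than in A375. These p-values do not subtract a control, since CHL1 has none at 6 days, and in A375 the time and any difference between its sets of libraries cannot be told apart.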

How the results depend on the processing

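Every DEG kept its direction in all alternatives in which it could be computed (18 for AKR1B10 and EDIL3, 15 for AL592188.6), with log2 fold changes of 1.72 to 2.18, 1.63 to 1.89 and 3.07 to 4.66, but adjusted p-values reached 0.375, 0.375 and 0.485. The counts of DEGs (3 higher, 0 lower) were 46 and 18 with DESeq2, 91 and 17 with the likelihood ratio test, 0 and 0 with voom, 0 and 0 with only the 4 compared libraries, 5 and 2 with the GC correction, and 7 and 1 at an adjusted p under 0.1. With all 18 libraries 2 genes passed, neither of them among the 3. With the replicate block they were 0 and 0, and 6 and 4 with only the 4 compared libraries. Same-numbered deviations correlated at -0.344, and the labels do not say whether the numbers pair the samples. A crossed pairing, added after seeing the data, gave 624 and 335. Leaving out each library gave 0 to 29 higher and 0 to 22 lower. At an unadjusted p under 0.05, the 1115 higher genes became 709 with DESeq2, 1814 with the crossed pairing and 571 to 1355 without 1 library. The 519 lower genes became 873 without the PRMT5i libraries, 855 with the GC correction and replicate block, 1241 with the crossed pairing and 193 to 1075 without 1 library. A lone library left in a group was assumed to vary like the other groups. Medians of the lysosome list ranged from 0.13 to 0.26 over 17 alternatives, of ATF4 genes from -0.36 to -0.13, of MHC genes from 0.10 to 0.25 and of ribosomal proteins from -0.28 to -0.07. With 2 libraries a group and 20509245 to 28223909 counts each, many differences of single genes could be missed. In simulated counts with the spread estimated from all 8 CHL1 libraries, edgeR's quasi-likelihood test recovered 4 of 50 genes changed 1.5-fold. It recovered 32 of 50 changed 2-fold and 50 of 50 changed 4-fold, all with a mean of at least 1 CPM. Of 20505 genes left unchanged, 12 passed as well. The simulation gave all groups the same spread, whereas the real 6-day replicates lay further apart (SD 0.361 against 0.213 at 72 hours). Its recovery may thus be too high for these data, where SEMA3C (4.74-fold) and RNA28S5 (8.02-fold) missed the threshold.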

Other observations

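A few list members not described so far had late replicates far from each other. F3, tissue factor, measured 28.9 and 37.1 CPM at 72 hours and 23.6 and 7.94 CPM at 6 days. NDRG1, a stress-responsive gene, measured 44.1 and 54.7 against 36.6 and 21.1 CPM, and NDUFA5, a subunit of complex I, 68.2 and 83.9 against 186 and 94.6 CPM. LMNB1, the nuclear lamin B1, measured 352 and 348 CPM in the controls, 241 and 248 CPM at 72 hours and 207 and 121 CPM at 6 days. In each of these genes both late libraries lay on the same side of the 72-hour ones, and none passed the test across all genes.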
